A study of Mus musculus with 20 samples.

Results

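Glycolysis and the response to low oxygen were followed through 34 genes in spontaneous breast tumors of F1 mice. The genes were listed by name, and each name was found as 1 row among the 43346 genes of the count table. They comprise 23 genes of glucose uptake, glycolysis and lactate handling and 11 genes of the hypoxia response. The 34 genes passed the filter on low counts, which left 18883 genes for the tests. The rule goes by name and uses no measured value, but the list was chosen with earlier results of these data known.

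The tumors were those of female [BALB/c-neuT x FVB/J] F1 mice, bred from BALB/c fathers that carried the neuT transgene and wildtype FVB/J mothers. neuT is an activated rat Her2/neu oncogene, which drives tumors in mammary epithelium, and every tumor of the series arose under it, so there was no tumor-free or transgene-free group. The mice bore several tumors each, of which 1 was taken, and RNA came from a small frozen piece that holds tumor epithelium together with stroma, vessels and leukocytes. Of the 20 tumors, each from a different mouse, 9 carry Lo and 11 carry Hi in their titles, words whose meaning is not given in the sources used here. Tumors are named by the number in their title. Total counts per tumor lay between 38765682 and 65465755, of which the 34 genes took between 0.971% and 1.48%. Markers of mammary epithelium (Epcam, Krt8, Krt18, Cdh1, Elf5 and Krt19) summed to between 2513 and 3860 CPM (counts scaled to a common library total) in each tumor. Skeletal muscle markers summed to 4.19 CPM in the median tumor but to 864.8 CPM in tumor 8, a Hi tumor, and to 479.7 CPM in the highest Lo tumor. Their part in the levels of the members was not tested.

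Glycolysis takes glucose in through membrane transporters, phosphorylates it, splits the hexose and turns the resulting trioses into pyruvate, which lactate dehydrogenase converts into lactate for export. When oxygen is scarce, the prolyl hydroxylases that mark HIF alpha subunits for destruction stall, and the stabilized subunits, paired with Arnt, bind DNA at a core of ACGTG or GCGTG and raise transcription of most glycolytic enzymes together with genes of pH control, mitophagy and vessel growth. Because this control acts on the HIF alpha protein, the transcript of a HIF alpha gene need not follow the activity of the pathway. Many tumors also use glycolysis when oxygen is at hand.

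Levels between genes are given as RPKM (reads scaled by the listed gene length and by the library total with TMM factors). The 9 most abundant members were enzymes of the pathway, while other enzymes (Eno2, Hk2, Pfkm and Pfkp) lay below the hypoxia targets Car12 and Bnip3. Pkm, pyruvate kinase, was the most abundant member, with a lowest value of 646.1, a median of 788.9 and a highest value of 1021 RPKM over the 20 tumors. Aldoa and Aldoc, which split fructose bisphosphate, followed at medians of 550.0 and 452.0 RPKM, and their ranges (345.6 to 768.7 and 332.0 to 726.7 RPKM) overlapped. Tpi1, triose phosphate isomerase, had a median of 266.3 RPKM and Ldha, the lactate dehydrogenase subunit that favors pyruvate reduction, 251.9 RPKM. From Ldhb (178.9 RPKM) through Pgam1, Gpi1, Pfkl, Egln3 and Gapdh to Pgk1 (91.0 RPKM), neighbors in the order of medians overlapped in their ranges. Gapdh is listed at 4133 bases while its principal annotated transcript has 1420, and by the latter length its median was 360.5 RPKM, which moved it from rank 11 to rank 6 among the members. By that length Aldoa, at 1002 RPKM, stood above Pkm, at 843.0 RPKM.

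**Figure D1:**
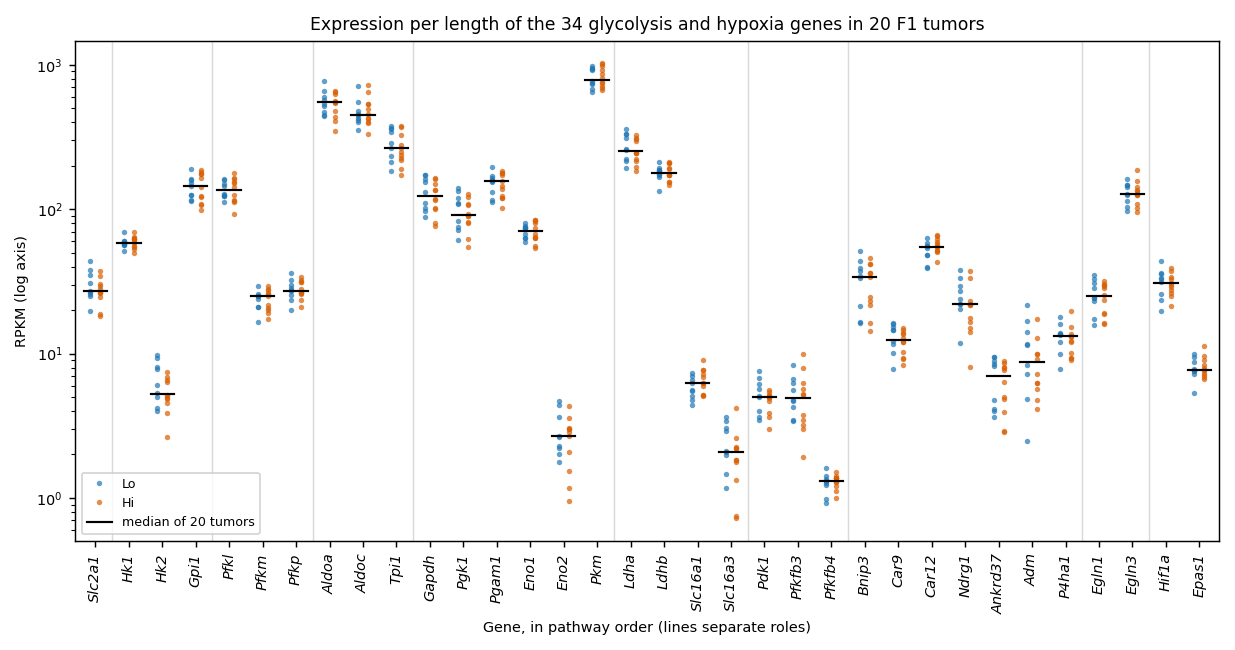
RPKM (vertical log axis) of each of the 34 genes in pathway order, 1 point per tumor, Lo in blue and Hi in orange, with a black bar at the median of 20 tumors. Pkm lay between 646.1 and 1021 RPKM and Pfkfb4 between 0.924 and 1.61 RPKM, and the Lo and Hi points of each gene overlapped.

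At steps with several isozymes or paralogs, 1 form usually held most of the RPKM. Hk1, the broadly expressed hexokinase, made up 85.5% to 95.2% of hexokinase RPKM, with a median level of 58.4 RPKM against 5.24 RPKM for Hk2, the form typical of insulin-responsive tissue and of tumors. Pfkl, the liver-type phosphofructokinase, held a median of 72.5% of its family, Pfkp 14.7% and Pfkm 12.6%. Eno1 made up 94.4% to 98.3% of enolase RPKM, and Eno2, the form known from neurons, had a median of 2.70 RPKM. Aldoc, known mostly from brain, made up a median of 45.9% of aldolase RPKM, and in tumors between 37.3% and 60.6%. Ldha held a median of 58.5% of lactate dehydrogenase RPKM. Of the lactate carriers, Slc16a1 (MCT1) held a median of 74.6% and Slc16a3 (MCT4), the export form, 25.4%, at 6.25 and 2.10 RPKM. These shares depend on the listed lengths. By the length of the principal transcript the median share of Pfkp was 25.3%, of Pfkm 9.83% and of Hk2 4.41%, those of Hk1 and Eno1 were 95.6% and 97.7%, and Aldoc held 35.3%. Slc2a1 (GLUT1), the glucose transporter among the members, had a median of 27.03 RPKM, from 18.1 in tumor 6 to 44.0 in tumor 17.

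The oxygen sensors and HIF alpha genes differed in level in the same way. Egln3, an oxygen-dependent prolyl hydroxylase, had a median of 127.7 RPKM, between 79.6% and 88.6% of the sum with Egln1, the hydroxylase that sets HIF1 alpha under normal oxygen in most cells, which had a median of 24.9 RPKM. Hif1a, which encodes HIF1 alpha, had 19.8, 31.1 and 43.7 RPKM in its lowest, median and highest tumor, and Epas1, which encodes HIF2 alpha and is known from endothelium, 5.37, 7.72 and 11.2 RPKM. The ranges of Hif1a and Epas1 did not overlap. Of the cell surface carbonic anhydrases, Car12 had a median of 55.0 RPKM and Car9, a classic HIF1 target, 12.4 RPKM, from 7.86 RPKM in tumor 13 to 16.4 RPKM in tumor 4. Bnip3 had a median of 34.2 RPKM, Ndrg1 22.1, P4ha1, a subunit of collagen prolyl hydroxylase, 13.1, Adm 8.81 and Ankrd37 7.01 RPKM. The switches were low, at medians of 5.02 RPKM for Pdk1, the kinase that closes pyruvate dehydrogenase, 4.96 for Pfkfb3 and 1.31 for Pfkfb4. In 8 members an overlapping gene held over 5% as many counts (Slc2a1, Gpi1, Pfkm, Pfkp, Car9, Ndrg1, Ankrd37 and Hif1a), and since the strand setting of the counting is not stated, reads of the overlapping genes cannot be told apart. In bulk RNA, fewer cells that express a gene and less RNA per cell cannot be told apart.

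Variation between tumors was measured as the SD of log2 CPM over the 20 tumors. Its median over the 34 genes was 0.30, against 0.25 over the 18883 genes tested, and 24 of the 34 lay above the latter. Over tested genes with a mean of at least 5 CPM the median was 0.19. Adm, which encodes the vasodilator adrenomedullin, varied most among the members, with an SD of 0.78. It had 2.48 RPKM in tumor 13, a median of 8.81 RPKM and 21.6 RPKM in tumor 17. Slc16a3 followed with an SD of 0.67, from 0.728 RPKM in tumor 6 over a median of 2.10 to 4.19 RPKM in tumor 18. Eno2 (SD 0.61) ran from 0.949 RPKM in tumor 6 to 4.69 RPKM in tumor 4. Ankrd37 (SD 0.59), a small ankyrin repeat gene raised by hypoxia, ran from 2.85 RPKM in tumor 19 to 9.49 RPKM in tumor 2, and its counts (median 497) share their place with Ufsp2 (median 1907). Pfkfb3 (SD 0.58), whose product makes the activator of phosphofructokinase, ran from 1.92 RPKM in tumor 19 to 9.995 RPKM in tumor 21. At the other end, Hk1 had an SD of 0.13 and ranged from 49.3 to 69.0 RPKM. Tumor 19 was the lowest of the 20 for 11 members, tumor 13 for 7 and tumor 6 for 6, while tumor 17 was the highest for 10 members and the other highest values were spread over 9 tumors.

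No member differed past the threshold between tumors titled Lo and Hi. Over the 18883 genes, edgeR's quasi-likelihood test called none at an adjusted p under 0.05 (0.0%), while 1045 genes had an unadjusted p under 0.05 (5.53%), and DESeq2 called 1 gene. None of the 34 members reached even an unadjusted p of 0.05, and DESeq2 called 0 members. The median log2 difference, Lo minus Hi, was 0.07 over the members and 0.00 over the genes tested. Ldha was at 276.6 ± 59.4 RPKM (SD, n = 9) in Lo and 254.1 ± 48.7 RPKM (SD, n = 11) in Hi, a log2 difference of 0.12 (SE 0.125, edgeR adjusted p = 0.9996). Car9 was at 13.1 ± 2.90 RPKM (SD, n = 9) in Lo and 11.9 ± 2.35 RPKM (SD, n = 11) in Hi, a log2 difference of 0.14 (SE 0.131, edgeR adjusted p = 0.9996). Hif1a differed by 0.05 (SE 0.125) and Epas1 by -0.04 (SE 0.101), both with an edgeR adjusted p of 0.9996. The 2 labels overlapped for each of these 4 genes.

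The question which members move together between tumors was put as a slope, the change in log2 CPM of a gene per log2 unit of a reference, tested with edgeR over all genes. With Ldha as the reference, 23 of the other 33 members rose and none fell, where 496 of 18882 genes rose (2.63%). The median slope was 0.78 over the members and 0.00 over the genes tested. Each of the 6 genes of lower glycolysis rose, as did the 3 phosphofructokinases, Slc2a1, Egln1 and Egln3. The steepest slopes belonged to Adm (1.98, SE 0.372, edgeR adjusted p = 0.00374), Slc16a3 (1.70, SE 0.329, adjusted p = 0.00483) and Bnip3 (1.66, SE 0.214, adjusted p = 0.00013), the last a mitophagy receptor. Ankrd37 (1.62, SE 0.260), Ndrg1 (1.56, SE 0.226), a stress and differentiation gene raised by hypoxia, and Eno2 (1.39, SE 0.314) came next, with edgeR adjusted p of 0.00116, 0.000384 and 0.0130. Tpi1 (1.19, SE 0.110) and Gapdh (1.18, SE 0.116) had smaller errors.

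Members that did not pass with Ldha include forms that share a reaction with one that did. Aldoc had a slope of -0.01 (SE 0.243) where Aldoa had 0.78 (SE 0.130). Hk1 had 0.21 (SE 0.1004) where Hk2 had 1.27 (SE 0.206). Car12 stood at 0.01 (SE 0.166), Epas1 at 0.09 (SE 0.174) and Pfkfb4 at -0.28 (SE 0.160). Hif1a, at 0.41 (SE 0.202, edgeR adjusted p = 0.235), and Car9, at 0.53 (SE 0.206, adjusted p = 0.138), did not pass either. Of 34 other hypoxia response genes listed by role, 14 rose and 1 fell with Ldha, and of 21 other glycolysis genes tested, 3 rose. Among them were Ddit4, an inhibitor of mTORC1 (1.76, SE 0.225), Ero1l, an oxidase of the endoplasmic reticulum (1.54, SE 0.217), and Higd1a, a mitochondrial protein (1.18, SE 0.147). Wsb1, the gene that fell, had a slope of -0.38 (SE 0.107). Of 6 epithelial markers Krt18 (0.82) and Krt8 (0.65) rose with Ldha, and of 4 neutrophil markers S100a8 (1.78), while of 6 leukocyte markers Ptprc (-0.68) and of 6 fibroblast markers Pdgfra (-0.95) fell. With a leukocyte score in the fit 23 members rose, where 896 of 18882 genes rose. With a fibroblast score 22 members and 845 genes rose, and with an epithelial score 24 members and 492 genes. Within the 9 Lo tumors alone 2 members passed where 0.0179% of genes rose, and within the 11 Hi tumors 8 where 0.461% did. The median slope of the members was 0.73 in either label. At an unadjusted p under 0.05, 26 and 24 of 33 members rose, where 715 of 16721 and 1724 of 16928 genes did.

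The transcript of Hif1a was a weaker reference. Bnip3 (1.39, SE 0.308, edgeR adjusted p = 0.0327) and Pfkfb3 (1.32, SE 0.308, adjusted p = 0.0391) rose with it, 2 of 33 members where 164 of 18882 genes rose (0.869%). At an unadjusted p under 0.05, 22 of 33 members rose, where 1841 genes did (9.75%), and the 7 hypoxia targets were among the 22. Slc16a3 (0.80, SE 0.476), Epas1 (0.07, SE 0.171) and Eno1 (0.16, SE 0.152) were not. DESeq2 called 8 members, rising, where 2.76% of genes rose. The count rested on single tumors. It was 0 without tumor 3, 5, 17, 19 or 21, 1 without tumor 11, 13 or 16, 5 without tumor 4 and 7 without tumor 14. In these fits between 7 (without tumor 19) and 295 (without tumor 14) genes rose. Of the other hypoxia response genes 5 of 34 rose with Hif1a, with the steepest slopes in Ppp1r3c, a glycogen scaffold (0.94, SE 0.222), Stc2 (0.93, SE 0.205), Tfrc, the transferrin receptor (0.86, SE 0.158), and Bnip3l (0.69, SE 0.153).

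With Car9 as the reference, edgeR called 0 of 33 members and 0 of 18882 genes (0.0%). At an unadjusted p under 0.05, 21 members rose and none fell, where 827 genes rose (4.38%). DESeq2 called 6 members, Slc2a1, Egln1, Bnip3, Ndrg1, Eno2 and Adm, rising, where 0.323% of genes rose, and they are named after their values were seen. By edgeR, Slc2a1 rose by 0.79 per log2 unit of Car9 (SE 0.157, adjusted p = 0.112). For the difference between the slopes within Lo and within Hi, 0 of 33 members stood at an unadjusted p under 0.05 by edgeR, where 2.7% of genes did, and 1 by DESeq2. Neither endothelial markers nor cell cycle genes gave a called member. Against an endothelial score (the mean z-score of 10 markers), 0 of 34 members passed where 170 of 18883 genes did (0.9%), DESeq2 called 0 members, and 1 member, Epas1, had an unadjusted p under 0.05 (slope 0.15, SE 0.0546) where 9.35% of genes did. Against a score of 12 cell cycle genes, 0 members passed by edgeR and 0 by DESeq2 where 233 genes did (1.23%), and Adm alone had an unadjusted p under 0.05 where 11.2% of genes did. Within Lo 13 of 34 members rose at an unadjusted p under 0.05, where 548 of 16722 genes did. Within Hi 3 fell, where 635 of 16929 genes did. The median slope of the members was 0.30 within Lo and -0.03 within Hi, with 0 called in either. The difference between the labels was not tested.

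Chr4 carries 3 of the 34 genes, Car9 (43506966 to 43513729, mm10), Slc2a1 (119108711 to 119137330) and Eno1 (150236721 to 150248879), and the total expression of this chromosome differed between the tumors. Chr4 dosage was measured as the median log2 CPM of 736 Chr4 genes, members left out, relative to each gene's median over tumors and to the same median over autosomal genes. It ran from -0.21 in tumor 1 to 0.37 in tumor 19. The paper reports loss of Chr4, whole or in part, in cultured tumor cells of this cross, and expressed alleles skewed toward FVB along Chr4. The dosage used here is a level of RNA in a mixed piece and not a count of chromosomes. Chr4 copies in tumor cells and the share of other cells cannot be told apart in it. Which of them set the dosage was not tested. Against this dosage 22 of 34 members fell and none rose, where 286 of 18883 genes fell (1.51%) and 784 rose (4.15%). The median slope was -1.51 over the members and -0.06 over the genes tested. In the 10 tumors with the lowest dosage the median deviation of the members from their means was above 0, between 0.12 and 0.40 on the log2 scale. In the other 10 tumors it lay between -0.50 and 0.03, above 0 in 1 of them, tumor 7.

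**Figure D2:**
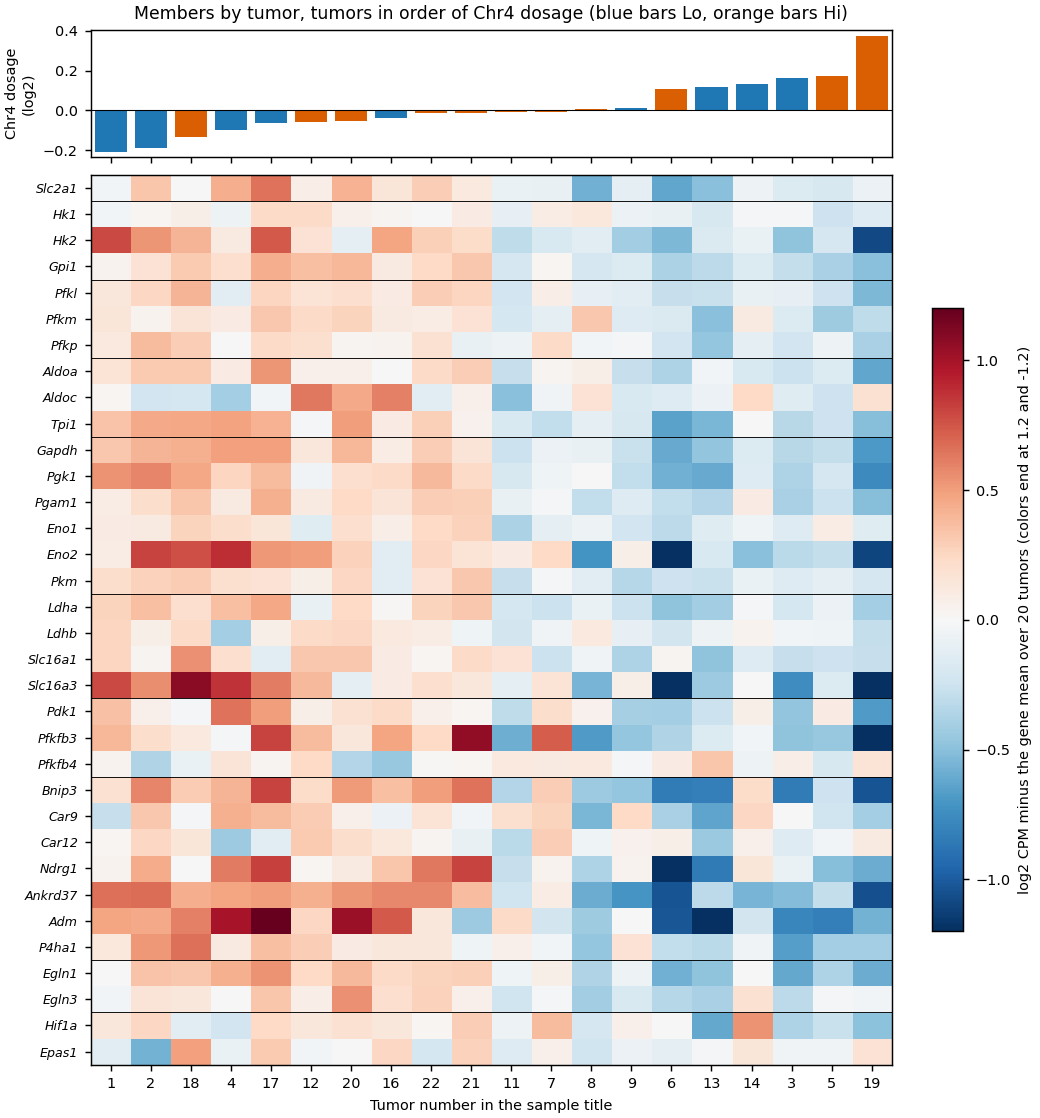
Log2 CPM of the 34 genes minus each gene's mean (color) in 20 tumors ordered from left to right by Chr4 dosage, which the bars above show on a log2 scale. Tumors 1 and 2 lie at the left and tumor 19, with a dosage of 0.37, at the right, and most rows turn from red to blue while Aldoc, Pfkfb4 and Epas1 do not.

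The steepest fall was that of Slc16a3, with a slope of -4.01 (SE 0.609, edgeR adjusted p = 0.000271). It had 3.42 and 2.92 RPKM in tumors 1 and 2, which had the lowest dosage, and 0.745 RPKM in tumor 19. Adm (-3.71, SE 0.898, adjusted p = 0.0126), Ankrd37 (-3.51, SE 0.562, adjusted p = 0.000379), Eno2 (-3.42, SE 0.616, adjusted p = 0.00123) and Bnip3 (-3.02, SE 0.662, adjusted p = 0.00599) followed in edgeR's test. Hk2 fell with a slope of -2.88 (SE 0.421, edgeR adjusted p = 0.000188), from 9.72 RPKM in tumor 1 to 2.64 RPKM in tumor 19. By role, 5 of 6 genes of lower glycolysis fell, 3 of 3 phosphofructokinases, 3 of 4 genes of lactate handling, 4 of 7 hypoxia targets and neither HIF alpha gene. The other called slopes lay between -2.83 (Pfkfb3) and -1.06 (Pkm). Ndrg1 had a slope of -2.19 (SE 0.746, edgeR adjusted p = 0.0960) and was not called.

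The 3 genes on Chr4 itself did not rise with its dosage. Their slopes were -1.12 for Slc2a1 (SE 0.458), -1.07 for Car9 (SE 0.465) and -0.68 for Eno1 (SE 0.298), with edgeR adjusted p of 0.186, 0.223 and 0.232. Genes that set the dosage had a median slope of 1.004 by construction, and 69 of the 736 (9.38%) had a slope under 0, of which 28 (3.80%) lay at or below that of Eno1. Reads of Eno1 may be shared with Eno1b, a near-identical copy on another chromosome with a median of 5403 counts against 18503, whose own slope was -0.58 (SE 0.346, edgeR adjusted p = 0.430). An antisense or overlapping gene (Gm12868 at Slc2a1, Gm12454 at Car9) also shares the place of each of the other 2 genes.

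**Figure D3:**
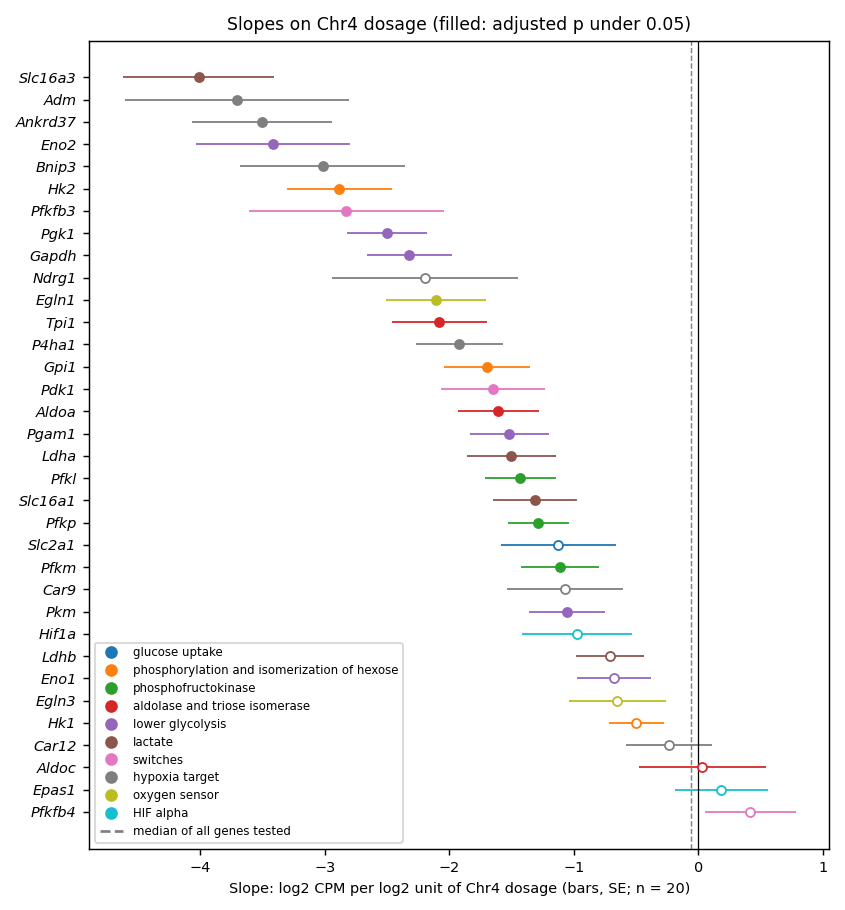
Slope of each gene on Chr4 dosage (horizontal axis, log2 CPM per log2 unit) with its SE, filled where edgeR's adjusted p was under 0.05, colored by role, n = 20 tumors. The filled points run from -4.01 (Slc16a3) to -1.06 (Pkm), and Aldoc, Epas1 and Pfkfb4 lie to the right of 0.

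Other hypoxia response genes fell as well, 12 of 34 with none rising, and 3 of 21 other glycolysis genes. Among them were Ddit4 (-3.10, SE 0.685), P4ha2, a collagen prolyl hydroxylase (-2.99, SE 0.408), and Ero1l (-2.95, SE 0.587). Markers of other cells moved as well. Of 6 leukocyte markers 3 rose with Chr4 dosage (Ptprc 1.54, Itgb2 1.16, Coro1a 1.10), of 6 macrophage markers 2 and of 6 fibroblast markers 1 (Pdgfra 2.22), while of 6 epithelial markers 1 rose (Krt19 3.55). None of the endothelial, neutrophil, adipocyte, skeletal muscle, red cell and cell cycle markers passed. The 6 adipocyte, the 5 red cell and the 12 cell cycle markers had slopes under 0, with medians of -1.01, -1.36 and -0.56. The leukocyte markers summed to between 69.0 and 142.2 CPM and the fibroblast markers to between 553 and 2057 CPM, none of them at 0 in any tumor. With a leukocyte score in the same fit 15 members fell, where 177 of 18883 genes fell. With a fibroblast score 21 members and 242 genes fell, and with an epithelial score 23 members and 446 genes. With the share of the ribosomal RNA locus 20 members and 281 genes fell. Without tumor 19, 16 members fell where 0.628% of genes did, within the 9 Lo tumors 2 where 0.0179% did, and within the 11 Hi tumors 9 where 0.49% did. The median slope of the members was -1.62, -1.54 and -1.59 in these fits. At an unadjusted p under 0.05, 25, 23 and 25 of 34 members fell, where 1005 of 18804, 658 of 16722 and 925 of 16929 genes did. With Ldha in the fit on Chr4 dosage 2 of 33 members fell, Pgk1 and Gapdh, where 58 of 18882 genes fell. With Chr4 dosage in the fit on Ldha 7 of 33 rose, where 68 of 18882 genes rose. These were Eno1, Pgk1, Gapdh, Tpi1, Slc2a1, Bnip3 and Ndrg1. At an unadjusted p under 0.05, 13 members fell in the former fit, where 1236 genes fell. In the latter fit 20 members rose, where 1895 genes rose. For the members called in neither of these fits the 2 references cannot be told apart here.

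The same fit was run with the dosage of each of the other 18 autosomes, again without the members. The number of members called was 0 for 16 of them, 1 for Chr6 (Hif1a, rising) and 2 for Chr15 (Pfkfb3 and Pfkm, rising), named after their values were seen. Pfkm itself lies on Chr15, while Pfkfb3 lies on Chr2 and Hif1a on Chr12. Of 18883 genes, the Chr6 fit called 981, of which 583 fell, and the Chr15 fit 320, of which 40 fell. The 1 member called for Chr6 is close to the share of all genes that rose. The 18 fits called between 0 and 1308 genes. At an unadjusted p under 0.05 they had up to 17 members, for Chr15, where 17 rose beside 8.55% of genes. Dosages of the other autosomes spread less, with an SD of 0.0151 to 0.0962 against 0.137 for Chr4, and the difference in counts between chromosomes was not tested.

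**Figure D4:**
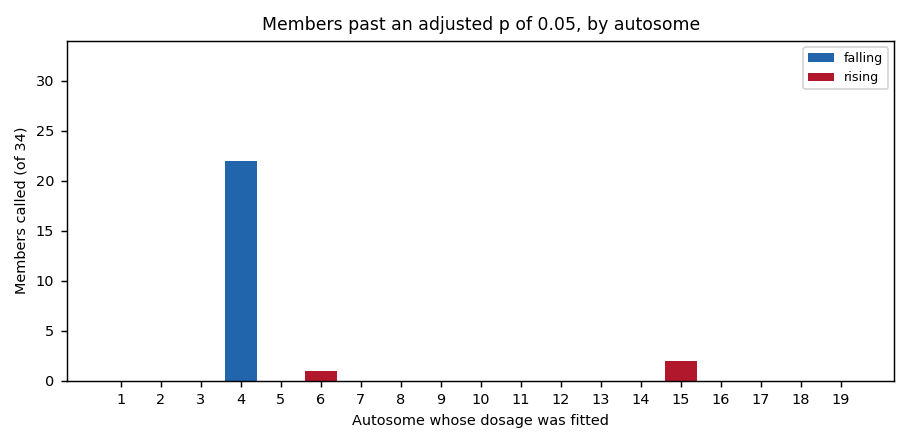
Number of the 34 genes past an adjusted p of 0.05 in edgeR's test (vertical axis) for the dosage of each autosome (horizontal axis), falling in blue and rising in red. Chr4 stands at 22 falling genes, Chr15 at 2 and Chr6 at 1 rising.

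Forms that share a reaction or a role parted along Chr4 dosage. For 12 such pairs the log2 ratio of the 2 genes was correlated with the dosage over the 20 tumors, with p from 100000 permutations, two-sided and adjusted over the 12 pairs, and 7 pairs passed by Pearson's r. The ratios were chosen after seeing the data. They come from the same tumors and dosage as the slopes of the single genes, and are no separate test. Hk1 rose relative to Hk2, with r = 0.78 (permutation p = 9e-05, adjusted 0.00054) and rho = 0.76 (permutation p = 0.0002, adjusted 0.0024), and r was 0.83 within Lo, 0.75 within Hi and 0.59 without tumors 19 and 1, which lie farthest from the median dosage. The ratio of Egln1 to Egln3 fell, with r = -0.81 (permutation p = 1e-05, adjusted 0.00012, the former being the smallest these permutations can give) and rho = -0.71 (permutation p = 0.00065, adjusted 0.0026), and r was -0.72 within Lo, -0.87 within Hi and -0.80 without those tumors. Eno1 rose relative to Eno2 with r = 0.70 (permutation p = 0.0004, adjusted 0.0016) and rho = 0.72 (permutation p = 0.00047, adjusted 0.0026), at 0.63 within Lo, 0.74 within Hi and 0.70 without the 2 tumors. Slc16a1 rose relative to Slc16a3 with r = 0.65 (permutation p = 0.00222, adjusted 0.00533) and rho = 0.62 (permutation p = 0.00436, adjusted 0.0105), at 0.74, 0.61 and 0.49 in the same order.

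Pfkfb3 fell relative to Pfkfb4 with r = -0.67 (permutation p = 0.00114, adjusted 0.00342) and rho = -0.62 (permutation p = 0.00434, adjusted 0.0105), at -0.62 within Lo, -0.68 within Hi and -0.51 without the 2 tumors. Aldoa fell relative to Aldoc with r = -0.57 (permutation p = 0.00805, adjusted 0.0161) and rho = -0.54 (permutation p = 0.0149, adjusted 0.0278), at -0.56, -0.56 and -0.41. Hif1a fell relative to Epas1 with r = -0.50 (permutation p = 0.0262, adjusted 0.0450), but rho was -0.32 (permutation p = 0.172, adjusted 0.257) and r was -0.54 within Lo, -0.44 within Hi and -0.28 without the 2 tumors. Ldha against Ldhb passed by rho (-0.54, permutation p = 0.0162, adjusted 0.0278) but not by r (-0.41, permutation p = 0.0775, adjusted 0.116), which was -0.58 within Lo, -0.14 within Hi and -0.49 without the 2 tumors. The 3 pairs of phosphofructokinases and Car9 against Car12 did not pass by either, with r between -0.32 and 0.11.

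**Figure D5:**
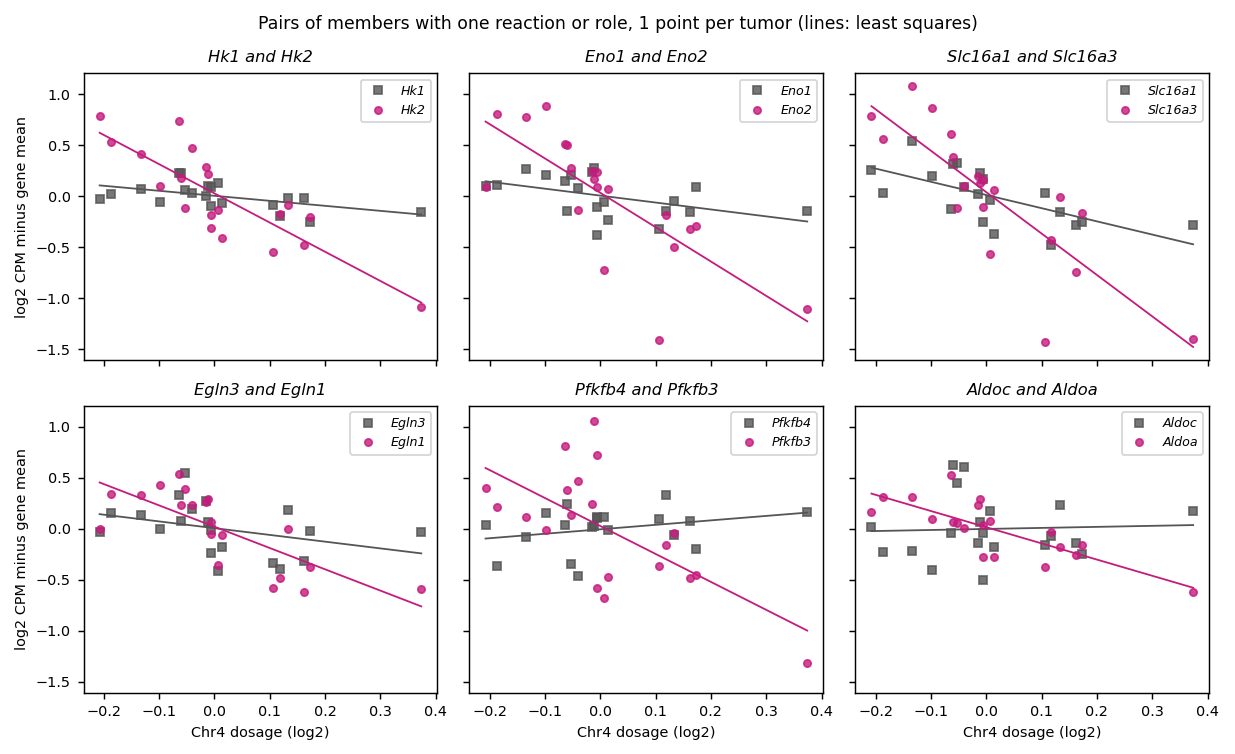
Log2 CPM minus the gene mean (vertical axis) against Chr4 dosage (horizontal axis, log2) for 6 pairs of genes, 1 point per tumor, with least-squares lines. Pink points (Hk2, Eno2, Slc16a3, Egln1, Pfkfb3 and Aldoa) fall more steeply than the gray squares of their partners, from r = -0.81 for the ratio of Egln1 to Egln3 to r = -0.57 for Aldoa to Aldoc.

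The bases before the transcript start are shown for the 5 members with the steepest slopes on Chr4 dosage and for Ldha, since these genes moved together and HIF binds beside the letters ACGTG or GCGTG. Sequences are the 250 bases upstream from RefSeq's promoter table (GRCm38.p6, the coordinates of mm10), 5′ to 3′ on the gene's strand, and up to 17 of these bases fall in an annotated exon of another transcript. Capitals mark ACGTG or GCGTG on either strand, which on the opposite strand read CACGT and CACGC, and CACGTG holds a match on both strands.
Slc16a3 (chr11:120948817-120949066, plus strand): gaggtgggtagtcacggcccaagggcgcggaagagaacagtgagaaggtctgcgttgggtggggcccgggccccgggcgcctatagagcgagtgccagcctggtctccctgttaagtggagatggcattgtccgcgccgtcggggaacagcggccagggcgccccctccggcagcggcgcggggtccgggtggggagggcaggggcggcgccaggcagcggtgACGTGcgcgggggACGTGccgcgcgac
Adm (chr7:110627407-110627656, plus strand): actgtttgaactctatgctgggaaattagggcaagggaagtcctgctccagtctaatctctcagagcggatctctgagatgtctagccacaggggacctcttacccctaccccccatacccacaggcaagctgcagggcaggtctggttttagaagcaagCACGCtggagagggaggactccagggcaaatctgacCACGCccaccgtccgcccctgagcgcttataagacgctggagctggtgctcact
Ankrd37 (chr8:45999851-46000100, minus strand): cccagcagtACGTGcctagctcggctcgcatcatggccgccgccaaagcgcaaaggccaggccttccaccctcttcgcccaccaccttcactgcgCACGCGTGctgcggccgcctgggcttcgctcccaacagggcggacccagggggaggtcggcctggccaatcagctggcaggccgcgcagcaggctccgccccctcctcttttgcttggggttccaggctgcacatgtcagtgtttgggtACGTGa
Eno2 (chr6:124769674-124769923, minus strand): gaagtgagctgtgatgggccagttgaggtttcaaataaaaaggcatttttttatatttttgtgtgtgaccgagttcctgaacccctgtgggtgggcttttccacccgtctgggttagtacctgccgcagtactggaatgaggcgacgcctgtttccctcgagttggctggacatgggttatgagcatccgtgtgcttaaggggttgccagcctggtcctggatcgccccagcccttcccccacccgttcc
Bnip3 (chr7:138909507-138909756, minus strand): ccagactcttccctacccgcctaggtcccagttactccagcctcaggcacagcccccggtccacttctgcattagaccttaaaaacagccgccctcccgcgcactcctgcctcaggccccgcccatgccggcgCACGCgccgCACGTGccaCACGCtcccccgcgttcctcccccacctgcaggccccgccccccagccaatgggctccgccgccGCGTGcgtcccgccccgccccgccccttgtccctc
Ldha (chr7:46846832-46847081, plus strand): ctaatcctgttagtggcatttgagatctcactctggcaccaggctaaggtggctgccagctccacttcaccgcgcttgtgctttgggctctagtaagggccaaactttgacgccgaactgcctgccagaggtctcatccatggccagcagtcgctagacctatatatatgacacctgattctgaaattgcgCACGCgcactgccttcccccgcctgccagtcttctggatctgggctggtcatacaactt

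Slc16a3 held 2 matches, Adm 2, Ankrd37 4, Bnip3 5, Ldha 1 and Eno2 0. Such letters are frequent, since 38.6% of the 32851 promoter windows in the table hold at least 1 match, and by gene 58.3% of the 11734 tested genes found there by symbol. Of the members, 32 were found in the table and 28 of them (87.5%) held a match in at least 1 of their windows. Among them were 19 of the 22 genes that fell with Chr4 dosage and 9 of the other 10. A match describes letters and not a bound site.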

How the data were processed

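Total RNA of 20 tumors was made into TruSeq mRNA libraries, and paired reads trimmed to 100 bases were aligned to mm10. The submitters' notes name TopHat2 2.0.12 and featureCounts 1.4.4, with builds mm10 and hg19. The authors deposited raw read counts per gene, without normalization or pooling, and the strand setting is not given in the sources used here. A pair of genes over the ribosomal RNA locus took between 6.29% and 27.7% of counts. Depth ran from 38765682 to 65465755 counts, and precision for these members is set mostly by the spread between tumors.

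Counts were filtered (filterByExpr), TMM-normalized and tested with edgeR 4.0.16 (quasi-likelihood, Benjamini-Hochberg over all genes tested, threshold 0.05), in R 4.3.3, and again with DESeq2 1.42.0. RPKM used the length listed per gene, and log2 CPM a prior count of 2. Scores are mean z-scores of marker lists. Ratios, promoter letters and figures were computed with Python 3.11.15, numpy 2.4.6 and scipy 1.17.1. The p-values of edgeR and DESeq2 set an effect against the spread between these tumors, and permutation p-values set a correlation against shuffled dosages. No pair of libraries came close to being the same library, since the nearest pair had a median chi-square of 4.33 per gene where a repeat gives 0.455. On simulated slopes of -2 and 2 on Chr4 dosage, 79 and 83 of 100 planted genes were recovered, with 6 false calls among 18883 genes.

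The members and lists were chosen with earlier results of these data known. Named in full are Car9, Ldha, Hif1a, Epas1, members on Chr4, the 5 members with the largest SD, up to 6 called members per direction and fit with the largest slope, and up to 4 other pathway genes per fit. Alternatives covered normalization, filters, the ribosomal RNA locus, the tumors included, further terms, the replicate number as a block and, chosen after seeing the data, marker scores and Ldha as terms, each tumor left out, the other autosomes, the isozyme ratios and transcript lengths from GENCODE M21. Allele counts are not analysed here. The values of 1 other pathway gene are not reported here.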

Additional observations from a re-analysis of the deposited data

Results flagged for a closer look

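Hk1 stood apart in 1 tumor. In tumor 17, one of the 9 Lo tumors, it had 588.4 CPM, against 437.6 to 513.9 CPM in the other 8, a gap of 0.494 of the group's range. Of 34 such checks, 1 in each member over the Lo tumors, this was the only one past the limit, and chance flags about 1 in 20 of them. The 11 Hi tumors were too many for this check.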

How the results depend on the processing

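With the replicate number in the titles as a block, Lo against Hi had 0 genes and 0 members called over 18 tumors (868 genes at an unadjusted p under 0.05). Same-numbered tumors deviated together with r between -0.42 and 0.21, over 0.1 in 3 of 9 pairs. What the number stands for is not given, so what else such tumors share is not known. Leaving out each tumor gave 16 to 23 called members for Chr4 dosage, 21 to 25 for Ldha, 0 to 7 for Hif1a and 0 to 1 for Car9 (Slc2a1, without tumor 14). Over all genes tested, 118 to 303 fell with Chr4 dosage in these fits, 284 to 701 rose with Ldha and 7 to 295 with Hif1a. Without tumor 14, 13 of 19065 genes rose with Car9. For Chr4 dosage, 2 members passed in Lo tumors, 9 in Hi tumors and 2 with Ldha as a further term. In that last fit the slopes of Eno1 (0.37) and Slc2a1 (0.45) turned positive. For Ldha, 2 passed in Lo tumors, 8 in Hi tumors and 7 with Chr4 dosage as a term. For Hif1a the count was 8 with DESeq2 and 6 with a fibroblast score, where 184 of 18882 genes rose. It was 1 with the share of the ribosomal RNA locus as a term, where 50 genes rose. For Hif1a it was also 0 without the 2 farthest tumors, 0 in Lo tumors, 1 in Hi tumors (53 of 16928 genes) and 0 with Chr4 dosage as a term. For Car9 it was 6 with DESeq2 and 2 with an epithelial score, where 3 of 18882 genes rose. The cause of these shifts was not tested, and fits within a label use fewer tumors. The median RPKM of the members was 29.1, 35.5 with totals that leave out the ribosomal RNA locus and 47.2 with principal transcript lengths. Of 578 slopes of named members under an alternative, in 524 neither direction nor call changed, in 52 the call was lost and in 2 the sign turned.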
